A study of Mus musculus with 18 samples.

Results

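The genes described here encode the plasma membrane and lysosomal carriers that move amino acids, taurine, creatine and amine transmitters across cell membranes. They were taken by gene symbol as all genes of the solute carrier families SLC1, SLC3, SLC6, SLC7, SLC36, SLC38 and SLC43 in the deposited mouse table. The families were chosen with earlier results of these data known. The table held 60 such genes among 46257 gene IDs. Of these, 46 reached a scaled read count of 10 in at least 2 libraries and were tested. The other 14 did not pass, with a highest value of 13 in any library. Among them Slc6a5, a glycine transporter gene, and Slc7a12 were at 0 in all 18 libraries.

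RNA of sorted mammary gland cells was sequenced for 3 populations at 3 stages, with 2 libraries in each of the 9 groups. Basal cells are the contractile outer layer of the duct. Estrogen receptor positive (ER+) luminal cells sense ovarian hormones, and estrogen receptor negative (ER-) luminal cells include the precursors of milk-secreting cells. Stages were puberty, adulthood and mid pregnancy. All groups shared the genotype ERrtTA/TetOCre/rosaYFP, a tetracycline-controlled Cre with a yellow fluorescent reporter. No source used here gives an inducer treatment, the sorting gates or any pooling of animals. For basal samples of puberty and pregnancy, the label of cell type also carries the word luminal, while their titles carry the same abbreviation, BC, as the adult basal samples, and their markers were those of basal cells. Nothing in the labels ties replicates to different animals, and p-values therefore reflect the spread among these libraries alone, which may be technical. In sorted bulk RNA, a change in the make-up of the sorted cells and a change in RNA per cell cannot be told apart.

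Each value is a read count scaled so that every library totals 20000000. Log2 fold changes are of value + 1 with their standard error (±), and a gene is said to be called where the limma adjusted p, over 22315 tested genes, was under 0.05. Reads in genes were 7674853 to 11292203 per puberty library and 5280335 to 6363534 per pregnancy library. Adult basal libraries had 7900555 and 4233222, and the 4 adult luminal libraries 2406221 to 3165238, so low values are least precise in adult luminal cells. Labelled populations held their markers. The sum of 10 basal marker genes was 163287 to 321011 in basal libraries and at most 39230 in luminal ones. The sum of 11 ER+ luminal markers was 180972 to 229264 in puberty and adult ER+ libraries and at most 47869 outside ER+ cells. For 10 ER- luminal markers the sum was 132387 to 187313 in puberty and adult ER- libraries and at most 64266 in other libraries of these stages. In pregnancy this sum did not separate the populations, and basal libraries had 57925 and 76480. Some libraries stood apart. Pregnancy ER+ replicate 2 had an ER+ marker sum of 39678 and an ER- marker sum of 140321, against 95586 and 59912 in its replicate 1. Pregnancy ER- replicate 2 had an ER- marker sum of 65713, against 148051 in its replicate 1. Csn3 (13187 against 81042) and Wfdc18 (5802 against 18387) differed most, and Elf5, Aldh1a3 and Mfge8 were lower by less. Kit, Trf, Lalba, Folr1 and Cd14 were higher in replicate 2. All 4 pregnancy luminal libraries held basal marker sums of 26659 to 39230, against 959 to 13800 in the other luminal libraries. Adipocyte marker sums were 2438 to 34621 at puberty, with 14508 and 2438 in the ER+ and 21000 and 3817 in the ER- libraries. They were 212 to 4889 at the later stages. Fibroblast marker sums were highest in the pregnancy basal libraries, at 174794 and 159453, against 7146 to 84478 elsewhere.

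Amino acid transporters work in a few modes. Sodium-coupled carriers such as those of SLC1, SLC6 and SLC38 pull amino acids or transmitters into the cell against their gradient. Obligate exchangers such as the heterodimers of an SLC3 heavy chain and an SLC7 light chain then trade these for the large neutral amino acids that the cell cannot make. In the mammary gland both modes feed milk protein synthesis, and leucine brought in by the heterodimer of SLC3A2 and SLC7A5 is a known signal to the growth kinase complex mTORC1.

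All 3 populations expressed a common core of transporters. Per kilobase of exon, the scaled read count was highest for Slc3a2, the heavy chain gene known as 4F2hc, in basal cells (mean 1675, range 1488 to 1942 over 6 libraries). Slc3a2 also led ER- luminal cells (mean 1467, range 1103 to 1919). ER+ luminal cells were led by Slc7a2, the gene of a cationic amino acid transporter, with a mean of 1437 per kilobase and a range of 602 to 2278. Slc38a2, the gene of the amino acid responsive sodium-coupled transporter SNAT2, was second in basal (1589), ER+ (1131) and ER- cells (1182 per kilobase). Its range over 6 libraries reached from 1253 to 2333 in basal, 803 to 1562 in ER+ and 677 to 1939 in ER- cells. It overlapped that of Slc3a2 in all 3 populations, so the order of these leading genes is not firm. Together the 60 genes made up 0.138% to 0.303% of a library. Spearman correlations between the replicates of a group, across the 46 tested genes, were 0.94 to 0.987, a description over related genes that share libraries.

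**Figure D1:**
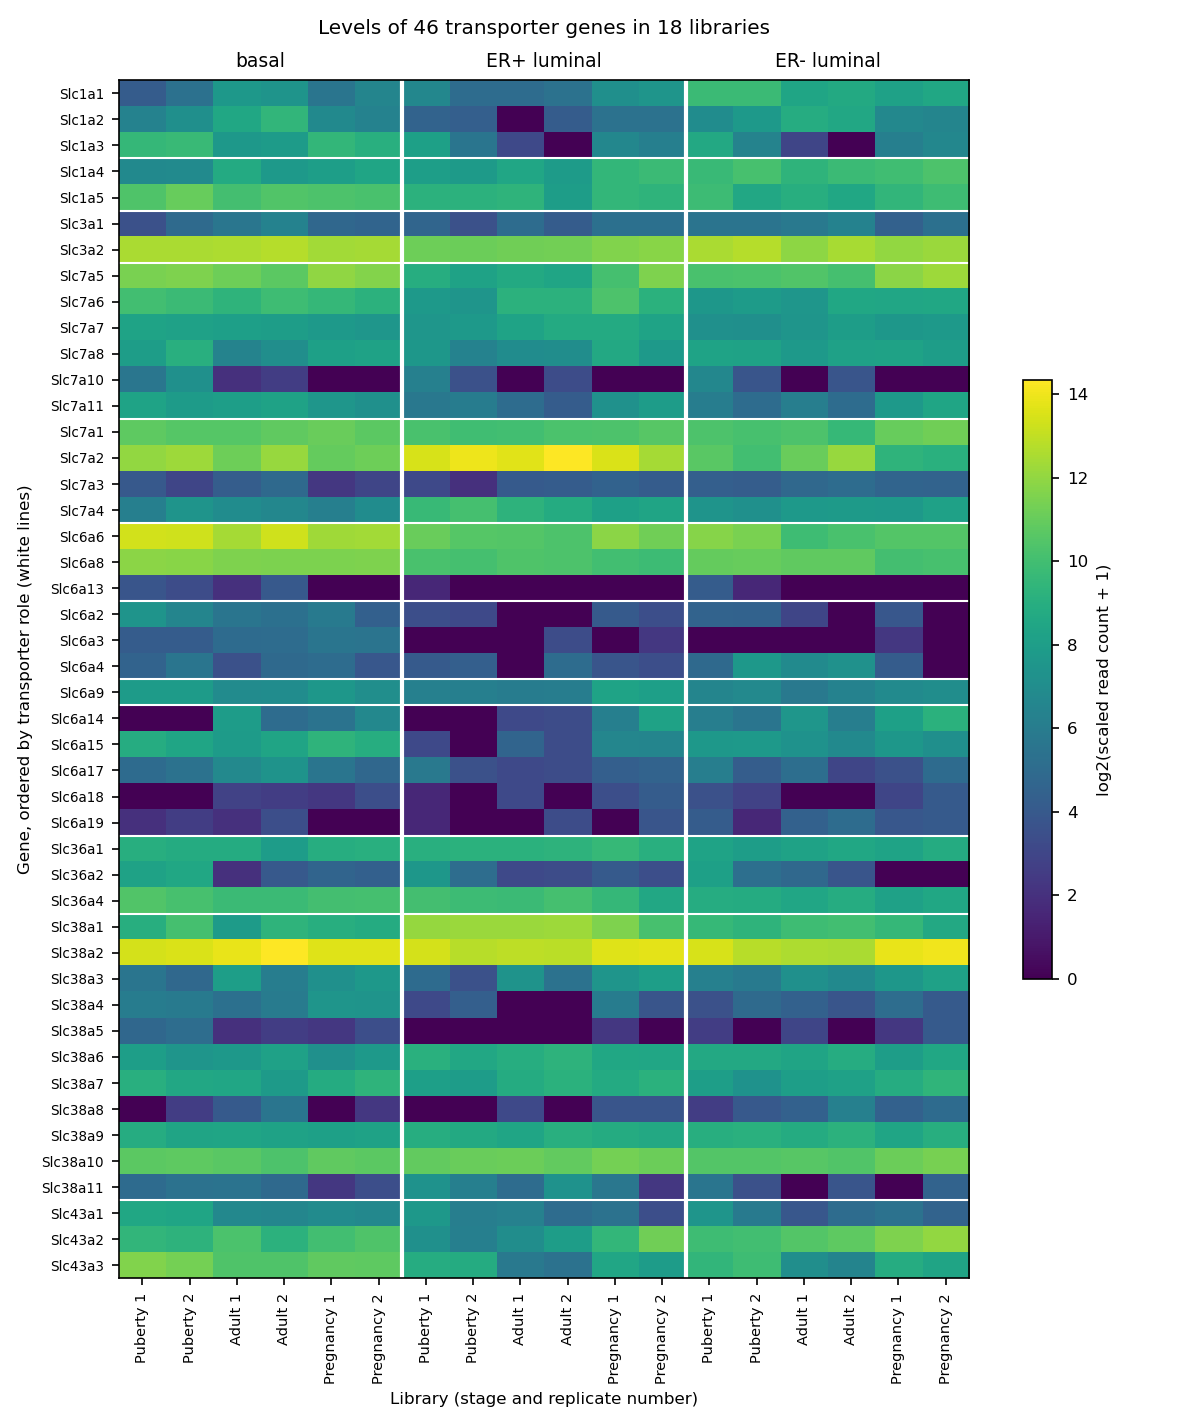
Heat map of log2(scaled read count + 1) for the 46 tested transporter genes (rows, ordered by transporter role) in the 18 libraries (columns, by population, stage and replicate number). Slc38a2 and Slc3a2 are high in every column, and Slc7a2 is highest in the ER+ luminal columns.

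To ask which carriers separate the hormone-sensing population from the other, ER+ luminal cells were set against ER- ones with the stages averaged. Of the 46 genes, 23 were called, 9 higher and 14 lower in ER+ cells, against 25.5% of all tested genes (10.3% higher and 15.2% lower). Their median log2 fold change was -0.26, beside -0.11 over all genes. Quantile scaling turned the split of all genes to 3101 higher and 2729 lower, from 2305 and 3386, and gave 9 higher and 11 lower transporters. Of the 23 calls, 18 were kept with each luminal library left out in turn, and the count ran from 18 to 22. It was 21 without pregnancy ER+ replicate 2 and 17 without all adult libraries.

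Cationic amino acid transporters take up arginine and lysine, and 2 of the 4 tested were higher in ER+ cells and 0 lower. Slc7a2, known as CAT2 (chromosome 8, 40862396 to 40922308), had 11500 and 16084 in puberty ER+ libraries, against 1605 and 1027 in puberty ER- ones. Adult values were 13139 and 20808 in ER+, against 2161 and 4555 in ER- cells. In pregnancy it had 11722 and 5503 in ER+, against 650 and 541 in ER- libraries. ER+ and ER- values did not overlap at any stage, and the fold change over the stages was 3.19 ± 0.26 (adjusted p = 6.07e-06). Slc7a4, a relative of unsettled transport activity, was at 281 to 1107 with a median of 533.5 in the 6 ER+ libraries, against 146 to 293 with a median of 208.5 in ER- libraries. It rose by 1.38 ± 0.22 in ER+ cells (adjusted p = 0.00022), and only pregnancy libraries of the populations overlapped. Slc7a1, the broadly expressed CAT1, was not called (-0.21 ± 0.13, adjusted p = 0.261). Per kilobase, the ratio of Slc7a2 to Slc7a1 was 12.1 and 20.7 in puberty, 16.2 and 21.4 in adult and 11.6 and 4.51 in pregnancy ER+ libraries. In ER- libraries it was 1.55 and 1.14 at puberty, 2.12 and 7.46 in adults and 0.405 and 0.288 in pregnancy. So the more abundant of the pair was Slc7a2 in all libraries but those of pregnancy ER- cells.

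Among sodium-coupled neutral transporters, Slc38a1, the glutamine carrier SNAT1 (chromosome 15, 96571418 to 96642913), had 4384, 4630, 4577 and 4891 in puberty and adult ER+ libraries, against 793, 639, 941 and 1034 in the ER- ones. Pregnancy ER+ libraries had 3053 and 1169, against 761 and 399 in pregnancy ER- libraries. ER+ values lay above all ER- values, with a fold change of 2.23 ± 0.31 (adjusted p = 0.000305). Slc38a2 did not differ detectably (0.01 ± 0.12, adjusted p = 0.959). Of 11 tested members of this group 3 were higher, Slc38a1, Slc38a10 and Slc38a11, and Slc38a4 and Slc38a8 were lower. Slc38a11 (at most 159), Slc38a4 (at most 63 in luminal libraries) and Slc38a10 (0.31 ± 0.09) lost their calls in at least 5 of 12 fits with a library left out, with adjusted p up to 0.116, 0.0897 and 0.0721. The lysosomal proton-coupled carriers Slc36a1 (0.83 ± 0.17, adjusted p = 0.00167) and Slc36a4 (1.03 ± 0.15, adjusted p = 0.000111) were higher in ER+ cells. Slc36a1 had 523 to 783 in ER+, against 255 to 459 in ER- libraries, without overlap.

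Of 3 tested glutamate transporters, 2 were lower in ER+ cells and 0 higher. Slc1a1, the neuronal and epithelial carrier EAAT3 (chromosome 19, 28835049 to 28913960), had 100 and 32 in puberty ER+ libraries, against 880 and 872 in puberty ER- ones. Adult libraries had 32 and 42 in ER+ and 348 and 420 in ER- cells, and pregnancy libraries 138 and 175 in ER+ and 293 and 376 in ER- cells. The groups did not overlap, and Slc1a1 fell by 2.79 on the log2 scale in ER+ cells (± 0.29, adjusted p = 4.07e-06). Slc1a2, the main glial glutamate carrier EAAT2, had 0 to 42 in ER+, against 91 to 464 in ER- libraries (-3.58 ± 0.52, adjusted p = 0.000205). Slc1a3, the other glial form, was not called (-0.19 ± 0.68). Slc1a4, the ASCT1 exchanger of alanine, serine and cysteine, had 228 to 869 with a median of 310.5 in ER+ and 655 to 1285 with a median of 929.5 in ER- libraries (-1.30 ± 0.18, adjusted p = 8.81e-05). Its close relative Slc1a5, the glutamine exchanger ASCT2, was not called (-0.12 ± 0.24).

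Of the 3 tested SLC43 genes 2 were lower in ER+ cells, and of the 6 light chains 2 were higher and 2 lower. Slc7a5, the LAT1 light chain (chromosome 8, 121881150 to 121907694), had 492 and 306 in puberty ER+ libraries, against 1181 and 1230 in puberty ER- ones. Adult libraries had 412 and 347 in ER+, against 1405 and 1091 in ER- cells, and pregnancy libraries 1123 and 2984, against 3715 and 4882. ER+ cells lay below ER- cells at each stage (-1.52 ± 0.21, adjusted p = 0.000122). Its partner Slc3a2 was lower as well, at 2271 to 3556 in ER+, against 3893 to 6773 in ER- libraries (-0.93 ± 0.09, adjusted p = 2.67e-06). Slc43a2, the facilitated carrier LAT4 (chromosome 11, 75531694 to 75577575), had 147, 73, 132 and 248 in puberty and adult ER+ libraries, against 947, 1016, 1480 and 1755 in ER- ones. Pregnancy libraries had 733 and 2364 in ER+ and 3002 and 4191 in ER- cells, so that the fall in ER+ cells was -2.60 ± 0.31 (adjusted p = 6.55e-05). Of the 6 tested light chain genes, Slc7a5 and Slc7a8 (LAT2) were lower. Slc7a8 lost its call in 9 of the 12 fits with 1 library left out (adjusted p up to 0.141). The y+LAT chains Slc7a6 (0.78 ± 0.21, adjusted p = 0.0109) and Slc7a7 (0.71 ± 0.16, adjusted p = 0.00313) were higher in ER+ cells.

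In the SLC6 family, Slc6a14, a broad carrier of neutral and cationic amino acids known as ATB0,+ (chromosome X, 21714896 to 21742355), was at 0 in both puberty ER+ libraries, against 68 and 46 in ER- ones. Adult libraries had 8 and 9 in ER+, against 185 and 69 in ER- cells, and pregnancy libraries 72 and 304 in ER+, against 280 and 579 in ER- cells (-3.62 ± 0.51, adjusted p = 8.52e-05). Slc6a15, a carrier of branched-chain amino acids and proline, had 0 to 94 in ER+, against 113 to 216 in ER- libraries (-3.34 ± 0.42, adjusted p = 3.85e-05). Slc6a8, the creatine transporter, had 914 to 1350 in ER+ and 1060 to 2091 in ER- libraries (-0.49 ± 0.08, adjusted p = 0.000208). Slc6a6, the taurine transporter, was not called (0.20 ± 0.15). Slc6a19 and Slc38a8 were called lower at values of at most 32 and 76, and the call of Slc6a19 was lost in 7 of 12 fits with a library left out (adjusted p up to 0.113). Whether strand was used in counting is not given, and without it the reads of a gene and of its opposite-strand neighbour cannot be separated. Slc1a1, Slc1a2, Slc3a1, Slc6a6, Slc6a9, Slc7a2, Slc7a4, Slc7a7, Slc7a10, Slc38a9, Slc38a10 and Slc43a2 have such a neighbour in the annotation.

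**Figure D2:**
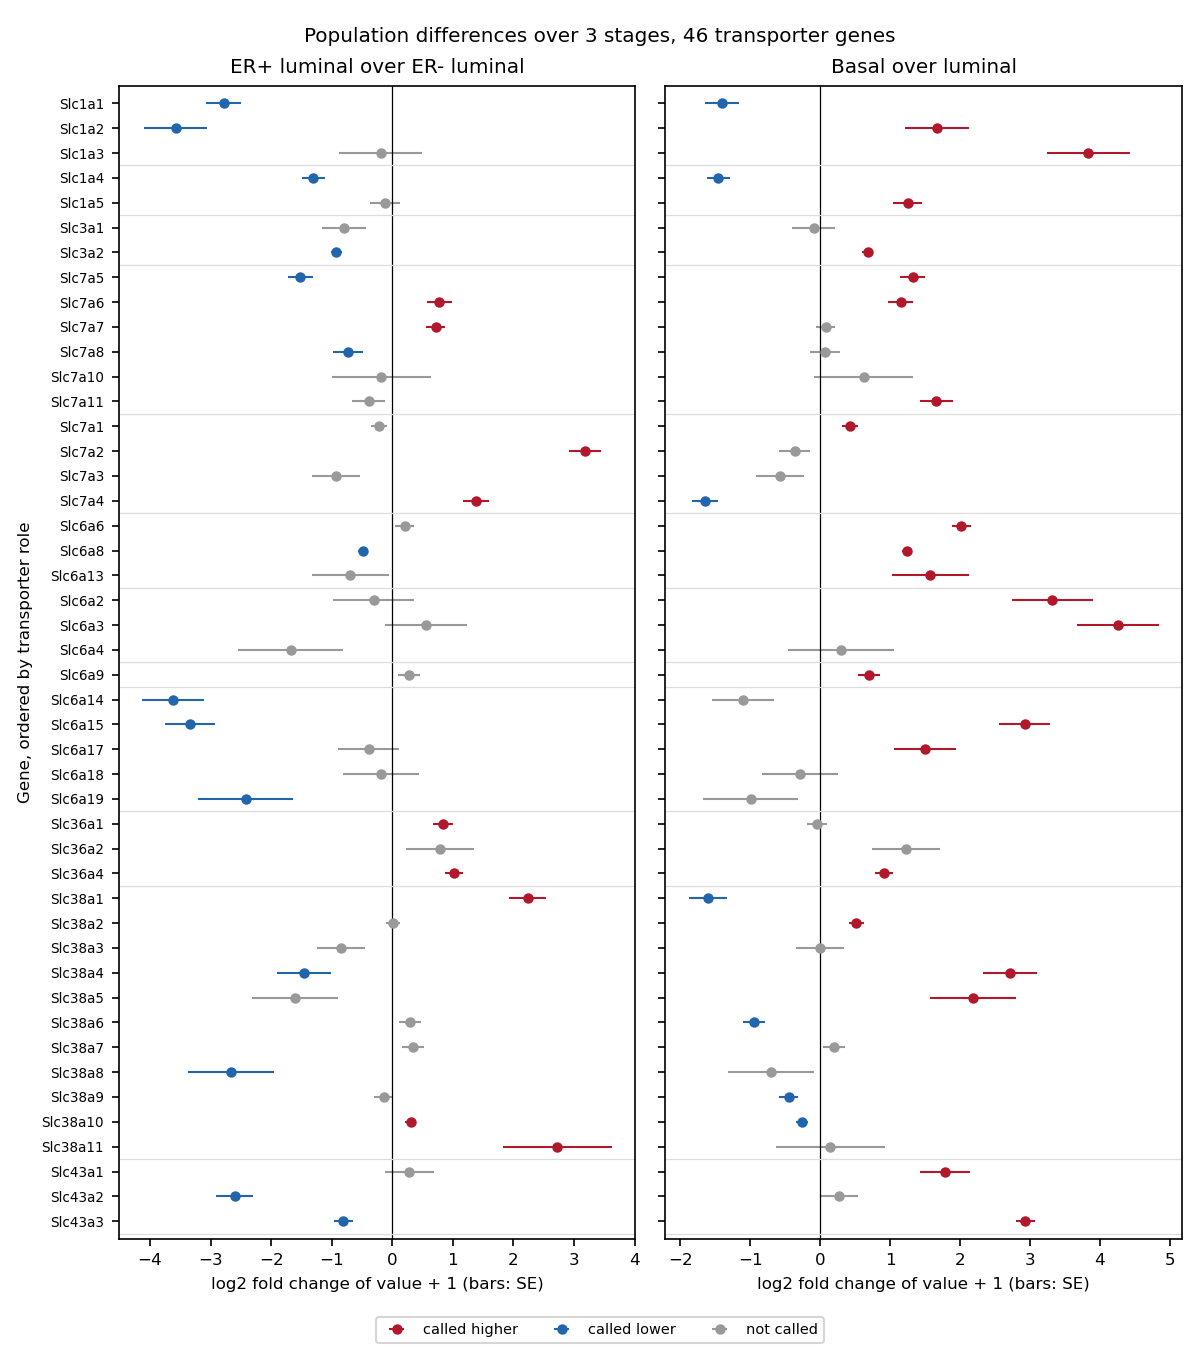
Log2 fold change of value + 1 (horizontal axis, bars are standard errors) of the 46 tested genes over the 3 stages, ER+ over ER- luminal cells on the left and basal over luminal cells on the right. Red marks genes called higher, blue called lower and grey not called: 9 red and 14 blue on the left, 22 red and 7 blue on the right.

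Within single stages, 13 genes were called between ER+ and ER- cells at puberty (5 higher, 8 lower, against 12.4% of all genes). In adults 17 were called (5 higher, 12 lower, against 17% of all genes), and in pregnancy 1, against 1.85% of all genes. The 1 in pregnancy was Slc7a2 (3.76 ± 0.46, adjusted p = 0.00163). The fold change of Slc38a1 was 2.66 ± 0.54 at puberty, 2.26 ± 0.54 in adults and 1.78 ± 0.54 in pregnancy (adjusted p = 0.154 there). For Slc7a5 these were -1.63 ± 0.36, -1.71 ± 0.36 and -1.22 ± 0.36 (adjusted p = 0.127 in pregnancy). Slc6a15 ran from -6.11 ± 0.72 at puberty over -3.09 ± 0.72 to -0.82 ± 0.72. In pregnancy, ER+ replicate 2 lay nearer the ER- mean than replicate 1 for 17 of the 23 genes, among them Slc7a2, Slc38a1, Slc7a5, Slc43a2 and Slc6a14. These 23 genes were called in a fit that held this library. The share of all genes for which this held was not counted, so the count is not particular to transporters. The raised ER- marker sum of pregnancy ER+ replicate 2 moved with these values, and its part in them was not tested.

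**Figure D3:**
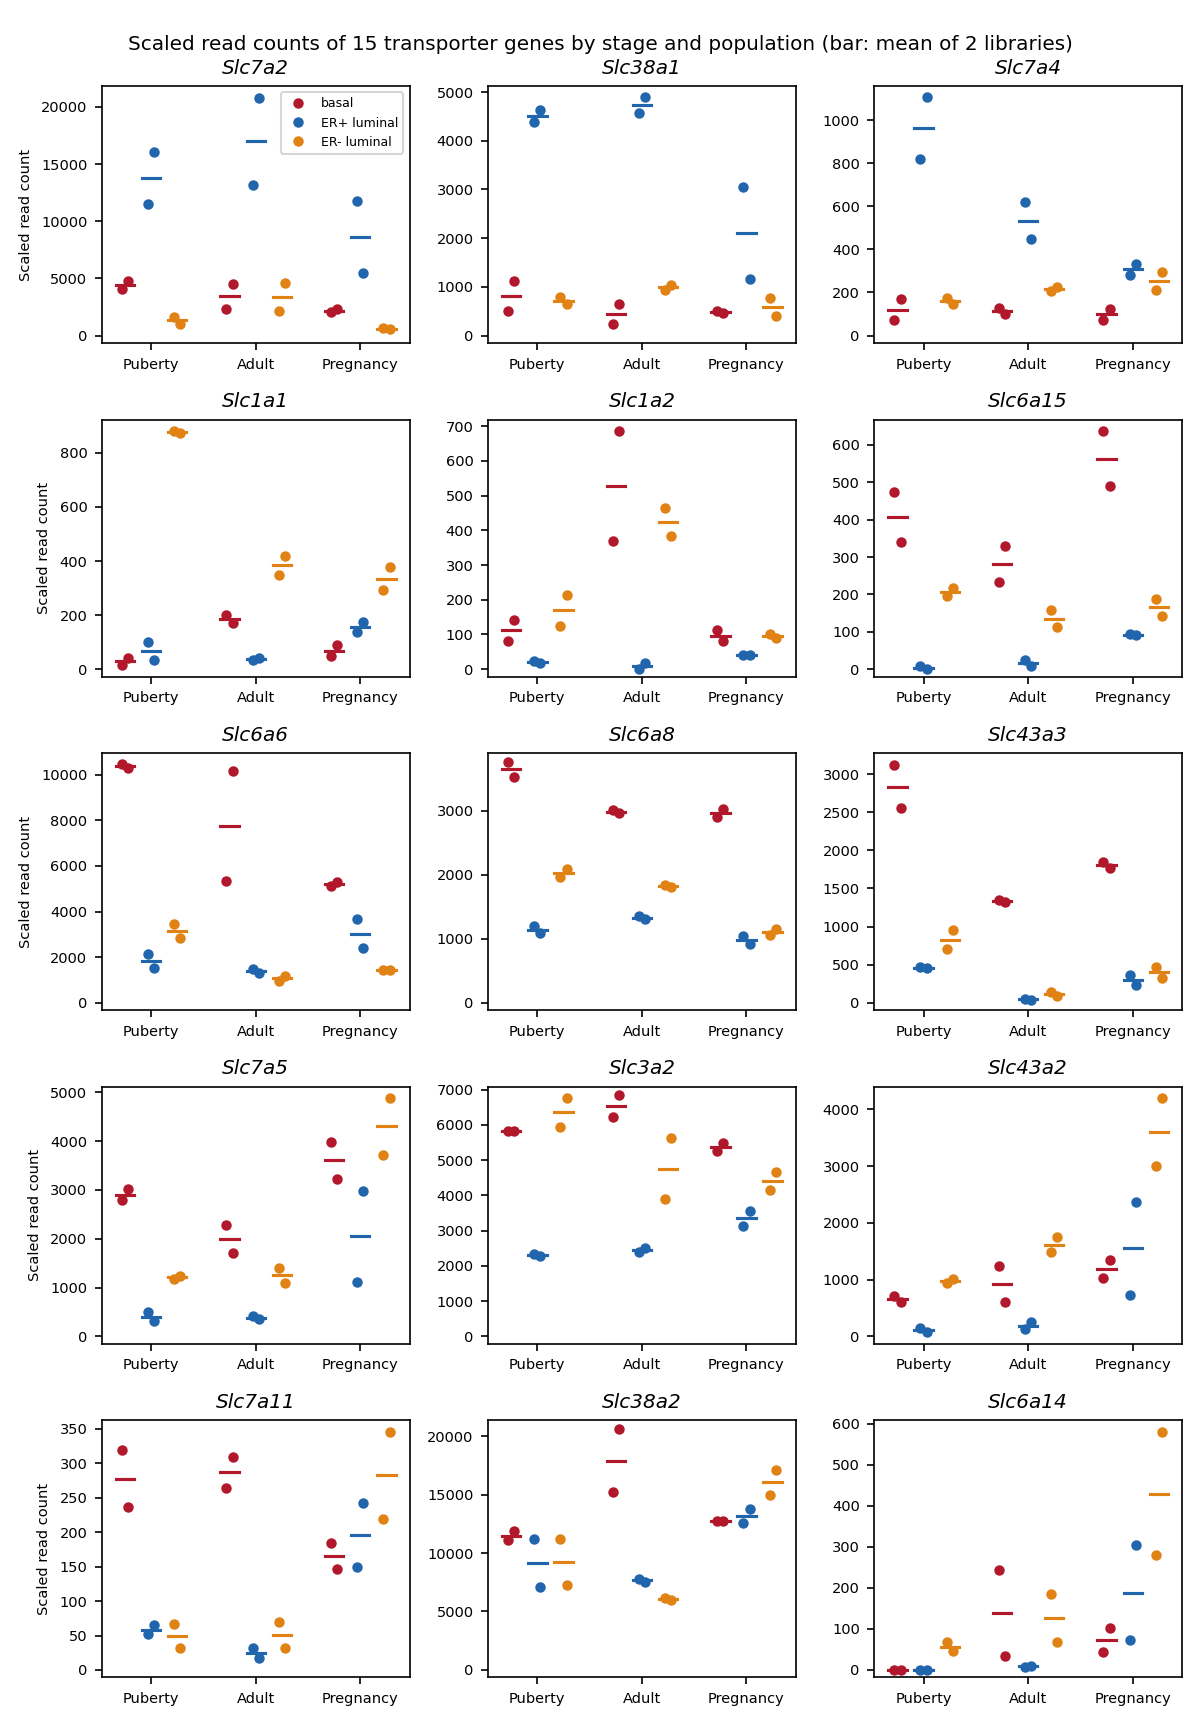
Scaled read counts (vertical axes, from 0) of 15 transporter genes in each of the 18 libraries by stage, with basal, ER+ luminal and ER- luminal libraries from left to right within a stage and a bar at the mean of 2 libraries. Slc7a2, Slc38a1 and Slc7a4 are highest in ER+ cells, Slc6a6, Slc6a8 and Slc43a3 in basal cells, and Slc43a2 reaches its highest values, 3002 and 4191, in pregnancy ER- cells.

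Basal cells were compared with the mean of both luminal populations. Of the 46 genes, 29 were called, 22 higher and 7 lower in basal cells, against 42.5% of all tested genes (20.9% higher and 21.5% lower). The median was 0.47, beside -0.03 over all genes. Quantile scaling gave 4162 genes higher and 6486 lower, in place of 4669 and 4804, with 21 transporters higher and 10 lower. With each of the 18 libraries left out, the count ran from 27 to 31, and 26 calls were kept in all of these fits.

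Slc6a6, the taurine transporter (chromosome 6, 91684053 to 91759066), had 10466 and 10291 in puberty, 5356 and 10158 in adult and 5118 and 5308 in pregnancy basal libraries. Luminal libraries had 962 to 3677. Basal values lay above all luminal values, by 2.02 ± 0.13 (adjusted p = 1.9e-08). Slc6a8, the creatine transporter, had 2898 to 3757 in basal, against 914 to 1350 in ER+ and 1060 to 2091 in ER- libraries (1.24 ± 0.07, adjusted p = 1.46e-09). Slc43a3, which carries purine bases (chromosome 2, 84936579 to 84958509), had 1327 to 3122 in basal, against 42 to 469 in ER+ and 88 to 953 in ER- libraries (2.93 ± 0.14, adjusted p = 3.17e-10). All 3 genes were also called within each stage taken alone. Slc6a13, a GABA carrier, was called at values of at most 17, and this call was lost in 7 of 18 fits with a library left out (adjusted p up to 0.112).

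Amine transporters take dopamine, noradrenaline or serotonin back into nerve endings. Slc6a3, the dopamine transporter, was low throughout, with 17 to 47 in basal, against 0 to 9 in ER+ and 0 to 4 in ER- libraries (4.25 ± 0.58, adjusted p = 2.72e-05). Slc6a2, the noradrenaline transporter, had 20 to 171 in basal, against 0 to 23 in luminal libraries (3.32 ± 0.58, adjusted p = 0.000254). Slc6a4, the serotonin transporter, was not called (0.30 ± 0.76). Sums of 10 Schwann cell and neuron markers were 4330 to 15721 in basal, against 1803 to 8823 in luminal libraries, and their part in these values was not tested.

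Among glutamate carriers, Slc1a3 had 201 to 840 in basal libraries, against 0 to 283 in ER+ and 0 to 404 in ER- ones (3.84 ± 0.59, adjusted p = 0.000249). Slc1a2 was higher too against the luminal mean (1.67 ± 0.45, adjusted p = 0.00895), at 80 to 685 in basal libraries, against 0 to 42 in ER+ and 91 to 464 in ER- ones, and overlapped ER- cells, whereas Slc1a1 was lower (-1.40 ± 0.25, adjusted p = 0.000283). The fall of Slc1a1 was -3.05 ± 0.43 at puberty and -1.79 ± 0.43 in pregnancy, but in adults alone the value was 0.62 ± 0.43, the other direction. The SLC1 exchangers split: Slc1a5 was higher in basal cells (1.25 ± 0.21, adjusted p = 0.000348) and Slc1a4 lower (-1.45 ± 0.16, adjusted p = 2.91e-06).

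Of the tested heterodimer subunits, 1 of 2 heavy chains and 3 of 6 light chains were higher in basal cells and 0 lower, namely Slc7a11, Slc3a2 (0.68 ± 0.08, adjusted p = 4.89e-06), Slc7a5 (1.32 ± 0.18, adjusted p = 5.19e-05) and Slc7a6 (1.16 ± 0.18, adjusted p = 8.41e-05). Slc7a11, the cystine-glutamate exchanger xCT, had 319, 237, 264 and 310 in puberty and adult basal libraries, against 17 to 69 in luminal ones. In pregnancy it had 185 and 146 in basal, against 150, 243, 219 and 346 in luminal libraries. The difference over the stages was 1.66 ± 0.24 (adjusted p = 3.85e-05), and it was 2.39 ± 0.41 at puberty, 3.07 ± 0.41 in adults and -0.48 ± 0.41 in pregnancy, when the groups overlapped. Slc38a1 (-1.61 ± 0.27, adjusted p = 0.000578), Slc38a6 (-0.95 ± 0.16, adjusted p = 0.000162) and Slc7a4 (-1.65 ± 0.19, adjusted p = 4.58e-06) were lower in basal cells. Slc38a4 (2.72 ± 0.39) and Slc6a15 (2.92 ± 0.36) were higher, the first at no more than 175.

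Pregnancy was set against puberty and against adulthood within each population. In ER+ cells 15 of 46 genes were called against puberty, 11 higher and 4 lower, where 13.1% of all genes were called (7.34% higher and 5.73% lower). Against adulthood 17 were called, 15 higher and 2 lower, where 17.9% of all genes were (12.8% higher and 5.05% lower). Quantile scaling split all genes 1896 higher to 1907 lower against adulthood, in place of 2865 to 1126. These 2 comparisons share the pregnancy libraries. The counts were 9 and 7 without pregnancy ER+ replicate 2, 9 over puberty without puberty ER+ replicate 2, and 9 over adulthood without adult ER+ replicate 2. In ER- cells 14 were called against puberty, 8 higher and 6 lower, where 14.8% of all genes were called (8.78% higher and 6.04% lower). TMM scaling split all genes 1478 higher to 1942 lower there, in place of 1960 to 1347, with 7 transporters each way. Against adulthood 13 were called, 9 higher and 4 lower, where 14.4% were (8.89% higher and 5.51% lower), and under quantile scaling 7 were higher and 5 lower, among 1529 higher and 1803 lower genes in place of 1983 and 1230. Without pregnancy ER- replicate 2 both counts were 3. The count over puberty was 8 and 5 without puberty ER- replicate 1 and 2, and that over adulthood 4 without adult ER- replicate 2. In basal cells 3 were called against puberty (2 higher and 1 lower, against 2.07% of all genes, 0.668% higher and 1.4% lower), with 0 or 1 when any of the 4 libraries was left out. Against adulthood 0 were called, where 7.26% of all genes were (2.92% higher and 4.34% lower). At an unadjusted p under 0.05 the count against adulthood was 11 in limma, and edgeR and DESeq2 on recovered reads called 3 and 5.

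Of the 3 tested SLC43 genes, 1 was higher and 1 lower in pregnancy than at puberty in ER+ cells, and likewise in ER- cells. Of the 6 tested light chain genes, 4 were higher and 1 lower in ER+ cells and 2 higher and 1 lower in ER- cells. Slc7a5 had 1123 and 2984 in pregnancy ER+ libraries, against 492 and 306 at puberty and 412 and 347 in adults. It rose by 2.24 ± 0.36 over puberty (adjusted p = 0.00106) and 2.27 ± 0.36 over adulthood (adjusted p = 0.00083) and kept both calls with each library left out. In ER- cells it had 3715 and 4882 in pregnancy, against 1181 and 1230 at puberty and 1405 and 1091 in adults. The rises were 1.82 ± 0.36 (adjusted p = 0.00534) and 1.78 ± 0.36 (adjusted p = 0.00704), both lost without pregnancy ER- replicate 2 (adjusted p up to 0.0602 and 0.0735). The rise over adulthood was also lost without adult ER- replicate 2. Basal cells had 3982 and 3229 in pregnancy, against 2786 and 3021 at puberty, a difference that was not called (0.31 ± 0.36). Basal marker sums were raised in pregnancy luminal libraries over adult ones, as were Slc7a5 and Slc43a3. Both genes were higher in basal cells with the stages averaged. Over puberty the sums were raised too, while Slc43a3 was lower in pregnancy ER- cells. Within pregnancy, ER- libraries had Slc7a5 at 3715 and 4882, against 3982 and 3229 in basal ones. Pregnancy ER+ replicate 2 had more Slc7a5 than replicate 1 (2984 against 1123) at a lower basal sum (26659 against 33030). Over adulthood, 4 of 9 endothelial markers were also higher in pregnancy ER+ cells and 5 of 9 in ER- cells, beside 12.8% and 8.89% of all genes. Endothelial sums were 6576 to 10833 in pregnancy luminal libraries, against 900 to 2378 in adult ones. In ER+ cells 7 of 8 fibroblast and 8 of 10 ER- luminal markers were higher over adulthood, beside the same 12.8%. Over puberty 5 of 10 ER- markers were higher in ER+ cells, beside 7.34% of all genes. The part of these markers in the rises was not tested. Slc43a3 had 359 and 239 in pregnancy ER+ libraries, against 55 and 42 in adults (2.58 ± 0.27, adjusted p = 1.53e-05), and 472 and 327 in pregnancy ER- ones, against 137 and 88 (1.83 ± 0.27, adjusted p = 0.000792). Over puberty, where ER- libraries had 699 and 953, Slc43a3 fell by 1.05 on the log2 scale in pregnancy ER- cells (± 0.27, adjusted p = 0.0176), lost in 2 of 4 fits with a library left out (adjusted p up to 0.192). Slc43a1, the large neutral amino acid carrier LAT3, had 41 and 10 in pregnancy ER+ libraries, against 197 and 70 at puberty (-2.46 ± 0.71, adjusted p = 0.0303), lost in 2 of 4 such fits (adjusted p up to 0.325). Slc43a2 had 733 and 2364 in pregnancy ER+ cells, against 147 and 73 at puberty (3.65 ± 0.53, adjusted p = 0.000777), and 3002 and 4191 in pregnancy ER- cells, against 947 and 1016 (1.85 ± 0.53, adjusted p = 0.0361). The rise in ER- cells was lost with any of the 4 libraries left out (adjusted p up to 0.188).

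Slc6a14 rose over puberty in all 3 populations. Pregnancy libraries had 43 and 103 in basal, 72 and 304 in ER+ and 280 and 579 in ER- cells. Puberty libraries had 0 and 0, 0 and 0, and 68 and 46. Against 3 reads over the puberty group, pregnancy was at least 23.6-fold higher in basal and at least 57.1-fold higher in ER+ cells. The limma adjusted p was 0.0024 in basal, 8.11e-05 in ER+ and 0.043 in ER- cells. The basal call was lost without pregnancy basal replicate 2 (adjusted p = 0.054), and the ER- call with any library left out (adjusted p up to 0.265). Adult libraries were uneven, at 244 and 33 in basal and 185 and 69 in ER- cells. In basal libraries the ER- marker sum moved with Slc6a14, at 57925 and 76480 in pregnancy, against 14050 and 17271 at puberty and 64266 and 39364 in adults, and 4 of 10 ER- markers were called higher in pregnancy than puberty and 0 lower. Their part in the result was not tested.

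Slc7a11 had 150 and 243 in pregnancy ER+ libraries, against 52 and 65 at puberty and 32 and 17 in adults. It rose over puberty by 1.70 ± 0.47 (adjusted p = 0.0257) and over adulthood by 2.98 ± 0.47 (adjusted p = 0.000518). The call over puberty was lost in 3 of 4 fits with a library left out (adjusted p up to 0.218), without pregnancy replicate 2 or either puberty library. In ER- cells it had 219 and 346 in pregnancy, against 66 and 32 at puberty and 69 and 32 in adults, rises of 2.55 ± 0.47 (adjusted p = 0.00248) and 2.52 ± 0.47 (adjusted p = 0.00353). The first of these was lost without puberty ER- replicate 2 (adjusted p = 0.0532), the second without adult or pregnancy ER- replicate 2 (adjusted p up to 0.0568). Pregnancy basal cells had 185 and 146, against 319 and 237 at puberty, and no call.

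Slc7a11, Slc6a14 and Slc43a2 were called higher in pregnancy than at puberty in both luminal populations and have a RefSeq promoter entry, and the 250 bases before their start sites are shown for that reason. RefSeq windows on GRCm38.p6 were found for 42 of the 60 genes. Capitals mark TGATGNAA, the core of the element that ATF4 and C/EBP proteins bind when amino acids run short, and TTCNNNGAA, the core letters of a STAT5 site, both searched on both strands. The motifs do not overlap each other. Slc43a2 has 2 windows, of which the first is shown and neither holds a match.
Slc7a11, chr3:50443614-50443863, minus strand: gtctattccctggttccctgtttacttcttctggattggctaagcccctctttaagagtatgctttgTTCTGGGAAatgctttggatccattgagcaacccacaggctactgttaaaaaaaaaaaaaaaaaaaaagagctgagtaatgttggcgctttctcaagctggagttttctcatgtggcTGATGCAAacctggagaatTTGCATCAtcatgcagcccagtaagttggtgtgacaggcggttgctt
Slc6a14, chrX:21714650-21714899, plus strand: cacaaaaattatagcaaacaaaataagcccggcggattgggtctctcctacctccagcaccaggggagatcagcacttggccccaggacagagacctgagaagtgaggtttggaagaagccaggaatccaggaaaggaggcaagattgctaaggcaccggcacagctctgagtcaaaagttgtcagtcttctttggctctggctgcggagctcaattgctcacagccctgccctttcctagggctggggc
Slc43a2, chr11:75531444-75531693, plus strand: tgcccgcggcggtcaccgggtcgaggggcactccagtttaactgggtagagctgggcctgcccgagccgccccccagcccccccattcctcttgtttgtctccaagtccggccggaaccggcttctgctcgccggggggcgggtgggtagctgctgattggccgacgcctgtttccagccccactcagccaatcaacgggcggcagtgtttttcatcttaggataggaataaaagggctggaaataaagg
The Slc7a11 window held TGATGCAA on each strand, 58 and 39 bases before the start, and TTCTGGGAA 174 bases before it. The Slc6a14 and Slc43a2 windows held neither motif in these letters. TGATGNAA stood before 2 of 42 transporter genes, Slc7a11 and Slc7a7, and before 3.91% of all genes with a window. TTCNNNGAA stood before 4 of 42, Slc7a11, Slc7a1, Slc38a9 and Slc1a3, and before 8.13% of all genes. These matches describe letters, not bound sites.

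Further genes were called in 1 luminal population or in both, and tests of the difference between populations are given with the differences of effects. In ER+ cells Slc6a9, the glycine transporter GlyT1, had 322 and 269 in pregnancy, against 75 and 73 at puberty and 63 and 66 in adults. It rose by 1.98 ± 0.31 (adjusted p = 0.000602) and 2.17 ± 0.31 (adjusted p = 0.000246), kept in all fits with a library left out. Slc6a9 overlaps B4galt2, Ccdc24 and Gm17114 on the opposite strand. ER- cells had 115 and 128 in pregnancy, against 91 and 107 at puberty, and no call. Slc6a15 had 94 and 91 in pregnancy ER+ libraries, against 8 and 0 at puberty (4.96 ± 0.72, adjusted p = 0.000394). Slc7a6 had 1316 and 578, against 212 and 179 at puberty (2.16 ± 0.36, adjusted p = 0.000808), but 605 and 586 in adults, where it was not called. Slc1a4 had 715 and 869, against 264 and 228 at puberty (1.68 ± 0.32, adjusted p = 0.00234). Slc38a3, the glutamine carrier SNAT3, had 178 and 259, against 31 and 11 (3.46 ± 0.68, adjusted p = 0.0031), lost without puberty ER+ replicate 2 (adjusted p = 0.0558). Slc38a4 rose over adulthood, where it was at 0, with 63 and 13 in pregnancy, at least 3.17-fold higher. Slc7a4 (281 and 333, against 818 and 1107 at puberty) and Slc36a4 (740 and 385, against 1066 and 919) were lower. Their calls were lost without 2 and 3 of the 4 libraries (adjusted p up to 0.102 and 0.394).

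In ER- cells the core carriers Slc38a2, Slc38a10 and Slc7a1 were higher in pregnancy. Slc38a2 had 14942 and 17133, against 11191 and 7238 at puberty (0.83 ± 0.21, adjusted p = 0.0162) and 6183 and 5983 in adults (1.40 ± 0.21, adjusted p = 0.000925). The rise over adulthood was kept in all fits with a library left out, and that over puberty was lost without replicate 2 of either stage (adjusted p up to 0.234). Slc7a1 had 2026 and 2370, against 1310 and 1139 at puberty (0.84 ± 0.23, adjusted p = 0.0222), lost in 3 of 4 such fits (adjusted p up to 0.173). Slc7a2 had 650 and 541, against 2161 and 4555 in adults (-2.40 ± 0.46, adjusted p = 0.00713), lost without replicate 2 of either group (adjusted p up to 0.0622). Slc6a8 had 1060 and 1157, against 1966 and 2091 at puberty and 1834 and 1811 in adults, falls of -0.87 ± 0.13 (adjusted p = 0.000657) and -0.72 ± 0.13 (adjusted p = 0.0032) that were kept in all fits. Slc6a4 had 17 and 0, against 116 and 151 in adults and 29 and 200 at puberty. Its fall from the adult level was -4.97 ± 1.51 (adjusted p = 0.0429) and was lost without pregnancy ER- replicate 2 or either adult library (adjusted p up to 0.327). Slc3a2 fell to 4152 and 4664 in pregnancy ER- cells, against 5945 and 6773 at puberty (-0.53 ± 0.16, adjusted p = 0.0341), a call lost with any of the 4 libraries left out. Some of these genes were called in ER+ cells as well. Slc3a2 was higher there in pregnancy than puberty (0.54, means 3348 and 2303), the other direction. Over adulthood in ER+ cells, Slc38a2 was higher (0.78, means 13190 and 7656) and Slc6a8 lower (-0.45 ± 0.13, adjusted p = 0.0286). None of these ER+ calls was kept in all fits with a library left out.

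**Figure D4:**
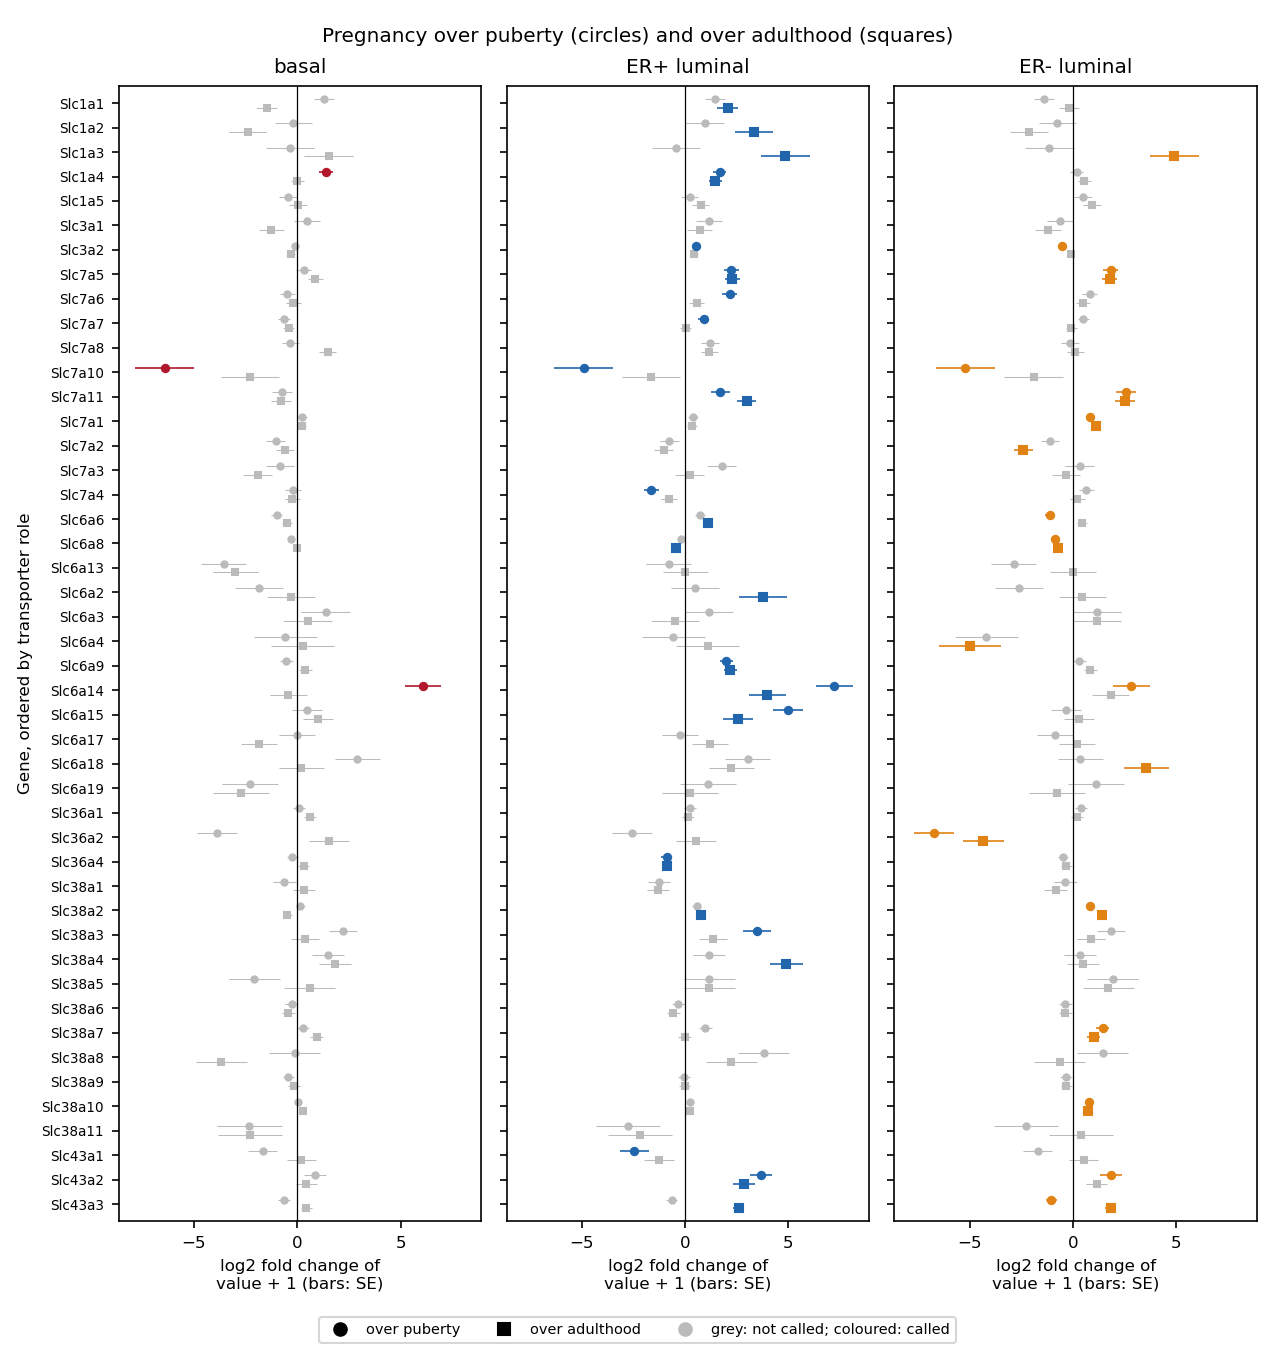
Log2 fold change of value + 1 (horizontal axis, bars are standard errors) of pregnancy over puberty (circles) and over adulthood (squares) for the 46 tested genes in basal, ER+ luminal and ER- luminal cells, coloured where called. Slc7a5 and Slc7a11 lie to the right in both luminal panels for both comparisons, and over puberty Slc7a10 lies left of 0 in all 3 panels.

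The heavy and light chains changed unequally. Among light chain transcripts per kilobase, the share of Slc7a5 was 82.5% and 85.5% in pregnancy ER- libraries, against 61.6% and 67.1% at puberty and 72.6% and 56.6% in adults. In ER+ libraries it was 37.2% and 74.0% in pregnancy, against 42.6% and 38.5% at puberty and 30.3% and 24.4% in adults, so pregnancy replicate 2 alone stood high. In basal libraries it was 78.1% and 77.1% in pregnancy, against 64.0% and 63.4% at puberty. The ratio of Slc3a2 to the summed light chains was 0.969 and 0.859 in pregnancy ER- libraries, against 3.26 and 3.88 at puberty and 2.11 and 3.07 in adults. In pregnancy ER+ libraries it was 1.09 and 0.927, against 2.12 and 3.01 at puberty. In basal libraries it was 1.08 and 1.38 in pregnancy, against 1.41 and 1.28 at puberty and 2.02 and 2.44 in adults, so that pregnancy and puberty overlapped. Heavy chain transcripts exceeded those of the light chains in all puberty and adult libraries. These ratios are descriptions without a test, and not every light chain of the family pairs with SLC3A2.

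Puberty was set against adulthood in each population. In ER+ cells 5 genes were called (3 higher, 2 lower, against 5.73% of all genes, 4.5% higher and 1.22% lower). In ER- cells 3 were called, all higher, against 3.66% (2.42% higher and 1.24% lower). In basal cells 6 were called (3 higher, 3 lower), against 9.73% (4.58% higher and 5.15% lower). Slc43a3 was higher at puberty in every population. It had 3122 and 2555 in puberty basal libraries, against 1347 and 1327 in adult ones (1.08 ± 0.27, adjusted p = 0.0225). Puberty ER+ libraries had 469 and 450, against 55 and 42 in adults (3.23 ± 0.27, adjusted p = 3.42e-06). Puberty ER- libraries had 699 and 953, against 137 and 88 in adults (2.88 ± 0.27, adjusted p = 1.59e-05). The luminal calls were kept with each library left out, the basal one with none (adjusted p up to 0.191). In puberty ER+ replicate 2, where Slc43a3 was at 450, the basal marker sum was 959 and the adipocyte sum 2438, but the fibroblast sum was 63092. Fibroblast sums were 19744 in puberty ER+ replicate 1 and 8901 and 7146 in adult ER+ libraries. In puberty ER- replicates 1 and 2 they were 15918 and 73103, against 19955 and 24226 in adult ER- ones. The part of these sums in the Slc43a3 values was not tested. Slc1a3 was higher at puberty as well, with 283 and 47 against 8 and 0 in ER+ cells (5.28 ± 1.18, adjusted p = 0.0225). In ER- cells it had 404 and 86 against 7 and 0 (6.05 ± 1.18, adjusted p = 0.016). The adult values rest on 1 recovered read in each of these groups. Slc1a3 was highest in the puberty luminal replicates 1, whose basal marker sums were 12468 and 13800, against 959 and 3301 in replicates 2. Endothelial sums were 15565 and 12455, against 3459 and 2528, and adipocyte sums 14508 and 21000, against 2438 and 3817. Pericyte sums were 9661 and 10287, against 5594 and 5423. These sources cannot be told apart, and their part in the result was not tested. Without these replicates 1 the calls were lost (adjusted p up to 0.147 and 0.122), as they were without the adult replicate 2. Slc6a6 had 3468 and 2826 in puberty ER-, against 962 and 1185 in adult ER- cells (1.55 ± 0.26, adjusted p = 0.00376). Basal cells at puberty had less Slc1a1, with 17 and 40 against 201 and 169 (-2.77 ± 0.50, adjusted p = 0.00351), a call lost without puberty basal replicate 1 (adjusted p = 0.0631). In the same comparison 7 of 10 ER- luminal markers were lower and 0 higher, with sums of 14050 and 17271 at puberty, against 64266 and 39364 in adults, and their part in the result was not tested.

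Slc36a2 and Slc7a10 moved with adipocyte transcripts. Slc36a2, a proton-coupled glycine and proline carrier known from fat cells, had 301 and 368 in puberty basal, 193 and 34 in puberty ER+ and 287 and 37 in puberty ER- libraries. At the later stages it was at 0 to 28, and puberty exceeded adulthood in basal cells by 5.38 ± 0.97 (adjusted p = 0.00368). Slc7a10, the serine carrier Asc-1 and a marker of white fat cells, had 49 and 147 in puberty basal, 75 and 11 in ER+ and 97 and 13 in ER- libraries, 0 to 13 in adults and 0 in all 6 pregnancy libraries. Adipocyte marker sums in the same puberty libraries were 18084 and 34621, 14508 and 2438, and 21000 and 3817, and all 9 markers were found. Both genes were thus high in the puberty libraries with high sums, and the part of these sums in the result was not tested. Adipoq, a defining adipocyte marker, had 78 to 2227 at puberty and at most 11 later. Against 3 reads over the pregnancy group, Slc36a2 was at least 30.4-fold lower in pregnancy than puberty in ER- cells (adjusted p = 0.000448). Slc7a10 was at least 9.04-fold lower in ER+ (adjusted p = 0.0313) and at least 10.3-fold lower in ER- cells (adjusted p = 0.0226), and was called lower in basal cells as well (adjusted p = 0.0277). The Slc36a2 call was kept with each library left out. The Slc7a10 calls in ER+, ER- and basal cells were kept in 1, 1 and 0 of 4 such fits (adjusted p up to 0.219, 0.187 and 0.202), and Slc7a10 overlaps Lrp3 on the opposite strand.

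**Figure D5:**
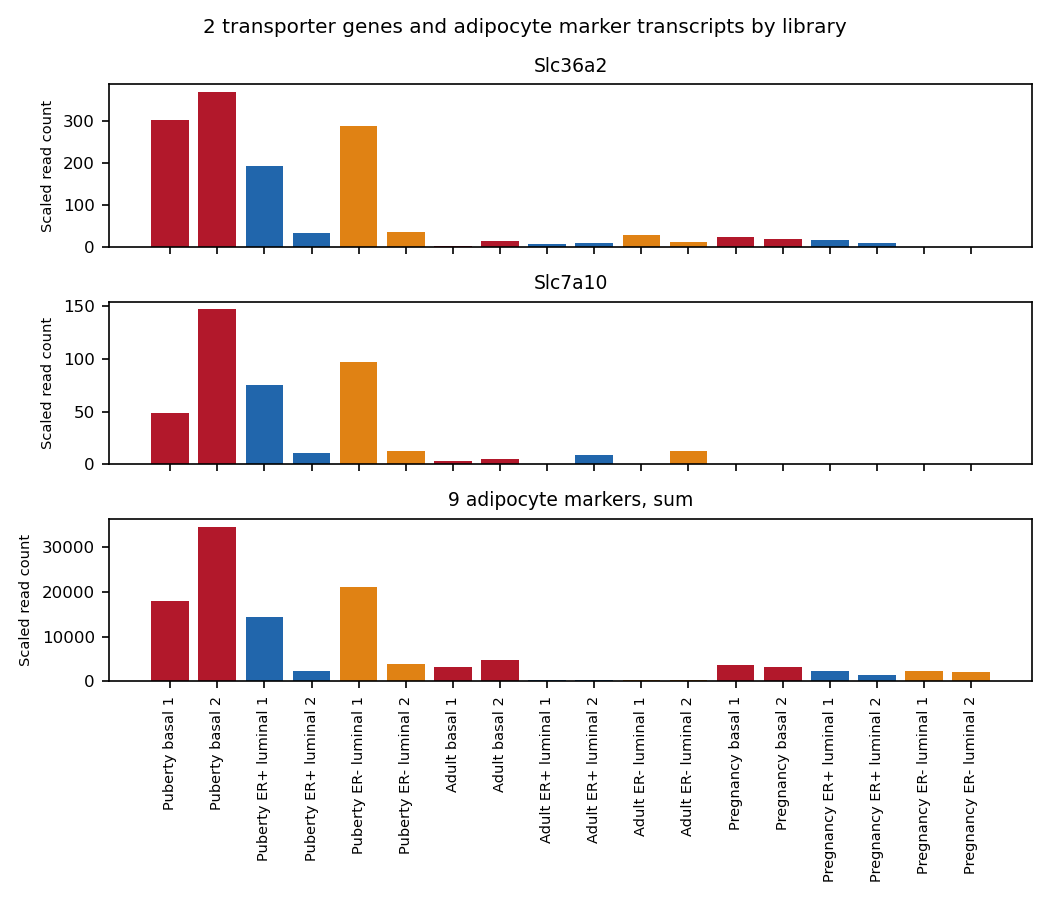
Scaled read counts (vertical axes, from 0) of Slc36a2, of Slc7a10 and of the sum of 9 adipocyte marker genes in each of the 18 libraries, coloured red for basal, blue for ER+ luminal and orange for ER- luminal. All 3 are high in the puberty basal libraries and in replicate 1 of both puberty luminal groups.

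The effect of pregnancy over puberty was compared between populations. Between ER- and ER+ cells, 5 genes differed, 1 higher and 4 lower, against 2.31% of all genes (0.847% higher and 1.47% lower). Slc6a15 (-5.29 ± 1.02, adjusted p = 0.0143), Slc1a1 (-2.84 ± 0.70, adjusted p = 0.0459), Slc6a6 (-1.83 ± 0.37, adjusted p = 0.0173) and Slc3a2 (-1.06 ± 0.22, adjusted p = 0.0193) had a lower effect in ER- cells. Slc7a4 had a higher one (2.28 ± 0.53, adjusted p = 0.0358). Slc6a6 had 1440 and 1450 in pregnancy ER-, against 3468 and 2826 at puberty, but 3677 and 2390 in pregnancy ER+, against 2126 and 1529. Slc1a1 had 293 and 376 in pregnancy ER-, against 880 and 872, but 138 and 175 in pregnancy ER+, against 100 and 32. For each of these 5 genes, the ER+ and ER- values lay closer together in pregnancy than at puberty on the log scale, except Slc6a6. None of the 5 calls was kept in all 8 fits with a library left out, and their adjusted p reached 0.0748 for Slc6a15 and 0.225 for Slc1a1. The count was 1 to 3 without any one of these libraries except puberty ER+ replicate 1, where it was 5. Between ER- and basal cells 1 gene differed, against 0.627% of all genes (0.197% higher and 0.43% lower). It was Slc7a11 (3.29 ± 0.67, adjusted p = 0.036). It was lost in 6 of 8 such fits (adjusted p up to 0.21). Slc7a5, Slc43a2 and Slc38a2 were not shown to differ between the luminal populations in this effect, and their differences were -0.41 ± 0.51, -1.80 ± 0.75 and 0.26 ± 0.30. The same holds for Slc6a9 (-1.68 ± 0.44, adjusted p = 0.0621), Slc1a4 (-1.49 ± 0.45, adjusted p = 0.111), Slc7a6 (-1.35 ± 0.50, adjusted p = 0.215) and Slc38a3 (-1.64 ± 0.96, adjusted p = 0.502).

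Genes around the transporters were read from 4 lists. Of 20 amino acid response genes, which ATF4 drives when amino acids run short, 7 were higher and 0 lower in pregnancy than puberty in ER- cells and 6 and 0 in ER+ cells (medians 0.96 and 0.92, beside 0.03 and 0.13 over all genes, of which 8.78% and 7.34% were higher). In basal cells 2 were higher and 0 lower, where 0.668% of all genes were higher and 1.4% lower. Phgdh, the entry enzyme of serine synthesis, had 808 and 1059 in pregnancy ER-, against 152 and 55 at puberty (3.32 ± 0.60, adjusted p = 0.00351). Aldh18a1, an enzyme of proline synthesis, had 2611 and 3549 in pregnancy ER-, against 1103 and 985 at puberty (1.55 ± 0.25, adjusted p = 0.000916). Asns, asparagine synthetase, had 848 and 1149, against 562 and 495 (0.90 ± 0.22, adjusted p = 0.0132). Between ER+ and ER- cells the list counted 2 higher and 7 lower, where 10.3% of all genes were higher and 15.2% lower. Of 21 tested genes that carry amino acid signals to mTORC1, 3 were higher and 0 lower in pregnancy than puberty in ER- cells, where 8.78% of all genes were higher and 6.04% lower. In ER+ cells 1 was higher and 0 lower, where 7.34% and 5.73% of all genes were.

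Of 17 tested genes of transmitter synthesis and breakdown, 4 were higher and 4 lower in ER+ than ER- cells, where 10.3% of all genes were higher and 15.2% lower. Tph1, which makes the serotonin precursor, had 9785 and 2884 in pregnancy ER+ libraries, against 42 and 96 at puberty and 249 and 1147 in adults (6.36 ± 0.94 over puberty, adjusted p = 0.000976). Pregnancy ER- libraries had 320 and 151. Slc6a4, which takes serotonin up, was at 13 and 10 in the same ER+ and 17 and 0 in the ER- libraries. Cdo1, which starts the path from cysteine to taurine, had 2723 to 11231 in ER+, against 151 to 2018 in ER- libraries (3.18 ± 0.40, adjusted p = 0.000201). Abat, which breaks down GABA, had 1191 to 1570 in basal, against 0 to 259 in luminal libraries (4.24 ± 0.74, adjusted p = 0.000965). Of 11 other amino acid and vesicular carriers, 1 was higher and 4 lower in ER+ than ER- cells, beside the same 10.3% and 15.2% of all genes.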

How the data were processed

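RNA of sorted mammary cells in 18 libraries was extracted and made into cDNA libraries with commercial kits, per the labels' protocols. STAR, Picard, HTSeq and the build GRCm38 (mm10) are named in the submitters' processing notes, but no source used here gives their versions or the use of strand. The authors deposited 1 table of gene-level signal, whole-number values whose pattern is that of read counts scaled to a total of 20000000 and rounded up. Division by each library's step per read, 1.75 to 8.25, recovered the reads per library given with the results. This step was inferred from the values, and 15 of 18 libraries missed the strict test of whole reads, so limits in reads and the count tests rest on it.

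Where a symbol was repeated, the row with the highest mean was used. Genes that reached 10 in 2 libraries were tested with limma 3.58.1 in R 4.3.3 on log2(value + 1), with a mean for each of the 9 groups, trend and robust options, and Benjamini-Hochberg adjustment over all 22315 genes tested. The test of ER+ over ER- cells over the 3 stages was checked on simulated counts, with changes placed only in genes of higher read counts. Comparisons of 2 libraries with 2 and genes near 0 were not checked in this way. Alternatives were other pseudocounts, filters and scalings, the compared groups alone, a block on the replicate number, subsets of stages, each library left out, thinned reads, and edgeR 4.0.16 and DESeq2 1.42.0 on recovered reads. A fold against a group at 0 used a floor of 3 reads over that group. Figures were drawn with matplotlib 3.10.9 and tables made with pandas 2.3.3 under Python 3.11.15.

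The members and gene lists were chosen with earlier results of these data known. Named genes were a fixed panel of 18 transporters, up to 6 called members per direction with the largest change and no overlap between groups, each member called in a difference of effects, and up to 4 called genes per pathway list. Positions are from GENCODE vM21.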

Additional observations from a re-analysis of the deposited data

Results flagged for a closer look

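The effect of pregnancy over puberty differed between ER- and ER+ luminal cells by the limma test of the difference itself for 5 transporter genes. The difference (ER- minus ER+, log2 scale) was -5.29 for Slc6a15, -2.84 for Slc1a1, -1.83 for Slc6a6, -1.06 for Slc3a2 and 2.28 for Slc7a4. Between ER- luminal and basal cells it was 3.29 for Slc7a11. Each of the 6 calls was lost in at least 2 of the 8 fits that left out 1 library.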

How the results depend on the processing

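With 1 library left out at a time, the number of transporter genes called ran from 18 to 22 for ER+ over ER- cells and from 27 to 31 for basal over luminal cells. For pregnancy over adulthood it ran from 7 to 15 in ER+, 3 to 12 in ER- and 0 to 3 in basal cells, and for pregnancy over puberty from 9 to 12 in ER+, 3 to 12 in ER- and 0 to 1 in basal cells. For puberty over adulthood it ran from 3 to 4 in ER+, 2 to 3 in ER- and 3 to 6 in basal cells. The differences of effects gave 1 to 5 (ER- minus ER+) and 0 to 1 (ER- minus basal). Fits on the compared groups alone gave 0, 7 and 2 calls for pregnancy over adulthood in ER+, ER- and basal cells, 6 and 10 for pregnancy over puberty in ER+ and basal cells, 0 and 0 for puberty over adulthood in ER+ and ER- cells, and 2 for ER- minus basal. Within single stages, ER+ over ER- gave 13 at puberty and 1 in pregnancy, and basal over luminal 16 in pregnancy. For puberty over adulthood, ER+ cells gave 3 with a pseudocount of 10, with edgeR and with thinned reads. Basal cells gave 11 with a pseudocount of 10, 11 with edgeR, 14 with DESeq2 and 10 with quantile scaling. For pregnancy over adulthood in basal cells, no call in limma became 4 with a pseudocount of 10, 1 with no filter, 1 with a filter of 50, 4 with quantile and 2 with TMM scaling, 3 with edgeR and 5 with DESeq2. DESeq2 gave 5 for pregnancy over puberty in basal cells, 10 for ER- minus ER+ and 3 for ER- minus basal. Thinned reads gave 2 and 0 for these differences, and edgeR and quantile scaling 2 each for ER- minus basal. The causes were not tested.

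The replicate block gave 24 calls for ER+ over ER-, 31 for basal over luminal, 18 and 16 for pregnancy over adulthood and over puberty in ER+ cells, and 13 and 14 in ER- cells. Same-numbered libraries of a stage correlated at 0.016 to 0.269 (median 0.075), with 1 of 9 pairs over 0.1. That pair was puberty ER+ with puberty ER- luminal cells (0.269). The 27 pairs of groups from different stages ran from -0.088 to 0.067 (median 0.001). These correlations do not settle whether the numbers pair the libraries, least of all for puberty luminal cells. Of 2795 alternative values of 134 calls, 2352 kept the call, 435 lost it and 8 changed sign. The sign changes in ER+ over ER- were Slc7a6 within puberty (-0.10) and, within pregnancy, Slc7a8 (0.079), Slc38a4 (0.30) and Slc38a10 (-0.039). Those in basal over luminal were Slc1a1 within adults (0.62) and, within pregnancy, Slc38a2 (-0.19), Slc7a11 (-0.48) and Slc6a9 (-0.23). Under quantile scaling the median over all genes was 0.03 for ER+ over ER- (otherwise -0.11), -0.17 for basal over luminal (otherwise -0.03) and, for pregnancy in ER+ cells, -0.11 over adulthood (otherwise 0.21) and -0.05 over puberty (otherwise 0.13). No called transporter changed direction under quantile or TMM scaling. Low values are least precise in the adult luminal libraries, the shallowest.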
